A study of Mus musculus with 6 samples.

Results

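Within mouse brain tissue carrying lesions made by overexpression of Foxr2 alone, GABAergic nuclei that were not striatal projection neurons were selected by their RNA. A barcode was taken when it had at least 1000 UMIs (unique molecular identifiers, each a counted RNA molecule), a mitochondrial share of at most 5% and at least 0.2% of its UMIs in Snap25, Syt1, Rbfox3, Celf4 and Grin2b, genes used throughout neurons. It also needed at least 3 UMIs of Gad1 and Gad2 together, at most 1 UMI of Slc17a7, and 0 UMIs of Drd1, Adora2a, Gpr6 and Rgs9. The rule found 389 nuclei, which were 3.85% of the 10096 barcodes of the library and came from a series of 22125 barcodes. They were 6.69% of the 5817 neuronal nuclei of that library (95% binomial interval 6.06 to 7.36). They are called the selected nuclei here, because their clusters differed in the markers of interneurons.

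The study placed Foxr2 in the ganglionic eminences of C57BL/6J embryos by in utero electroporation, which drives injected plasmids into fetal brain cells with electric pulses, and the piggyBac transposase carried the constructs into the genome. In both groups the ubiquitous CAG promoter drove Foxr2 together with GFP, and a second construct carried Akaluc, a luciferase, with GFP. The study lists a negative control guide with Cas9 among its vectors, and whether the group Foxr2 alone received it is not given in the sources used here. The study describes the lesions of Foxr2 alone as nonproliferative and located in the cortex or the striatum. The group Foxr2 p53LOF received a guide against Trp53 with Cas9, and its tumors were in the striatum. The labels give brain as the tissue of both groups, with a brain tumor as the disease state, and give neither age nor sex. A sort for GFP is not stated, so a library can hold nuclei that never took up a plasmid. RNA and open chromatin (ATAC-seq) were read from the same frozen-tissue nuclei with the 10x Multiome assay. The counts used were from 1 library of each group, Foxr2 alone replicate 1 and Foxr2 p53LOF replicate 1, so no comparison had replicates. All values are therefore descriptions of these libraries, and no test was made.

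Interneurons are the local inhibitory neurons of the forebrain. They make GABA with the glutamate decarboxylases Gad1 and Gad2 and load it into vesicles with the transporter Slc32a1. Those that arise in the medial ganglionic eminence (MGE) express the homeodomain factor Lhx6 downstream of Nkx2-1 and mature into the somatostatin (Sst) and parvalbumin (Pvalb) classes. Those from the caudal ganglionic eminence (CGE) express Adarb2 and Prox1 and include the Vip class and most Lamp5 cells. The Dlx factors act in all of these lineages and also in the lateral eminence, the source of the striatal projection neurons, which are GABAergic as well. The striatum holds a few further local types, among them cholinergic interneurons, which use Chat and Slc5a7 to make and take up their transmitter precursors.

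The selected nuclei held a median of 6688 UMIs, 3070 genes and 15007 ATAC counts in peaks. For comparison, 3 other sets were taken from the same library. A striatal projection type (1561 neuronal nuclei with Gad1 or Gad2, with Rgs9, with Drd1, Adora2a or Gpr6, and with at most 1 Slc17a7 UMI) had a median of 7599 UMIs, a cortical glutamatergic type (778 neuronal nuclei with at least 3 Slc17a7 UMIs and 0 UMIs of Gad1, Gad2 and Rgs9) of 10548, and an oligodendrocyte type (1626 nuclei below the neuronal share, with at least 5 UMIs over a set of myelin genes) of 1384. The library of Foxr2 alone replicate 1 shared 140 barcodes with Foxr2 p53LOF replicate 1, and 5 of these were among the selected nuclei. The Scrublet method, which looks for doublets (2 nuclei in 1 droplet), marked 47 of the 389 selected nuclei (12.1%) and 10.5% of the nuclei of the library that passed the limits on UMIs and mitochondrial share. They were kept, and the values without them are given where they differ.

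The thresholds cut through a graded series of values. With the other limits met, 122 nuclei had 2 UMIs of Gad1 and Gad2 together and stayed outside, while 107 had 3, 57 had 4 and 58 had 5. Rgs9 removed 148 nuclei with 1 UMI and 112 with 2. Of the 389 nuclei, 36 had 1 UMI of Slc17a7, and 8 more would have entered with 2. A nucleus close to these limits could fall on either side by counting alone.

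Start regions of a few genes are printed here as examples, and they do not stand for all genes the subtypes turn on. They are the 150 bases before the RefSeq start of Sst, Vip, Dlx2 and Lhx6. Sst and Vip are peptide genes that lead their own clusters below. Dlx2 and Lhx6 are developmental factors whose loci were more open over all selected nuclei than in the striatal projection and cortical glutamatergic types. Sequences are from RefSeq on GRCm38.p6, the assembly also called mm10, and run 5′ to 3′ on the strand of the gene. Capitals mark motif letters found on either strand: the cAMP response element TGACGTC (8 letters in the full palindrome TGACGTCA), the TATA box core TATAAA, the E box CACGTG and the homeodomain core TAATTA.
Sst, chr16:23890845-23890994, minus strand: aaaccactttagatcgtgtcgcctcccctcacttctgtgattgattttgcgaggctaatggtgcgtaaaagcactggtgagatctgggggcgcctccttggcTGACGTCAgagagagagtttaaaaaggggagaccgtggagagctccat
Vip, chr10:5639068-5639217, plus strand: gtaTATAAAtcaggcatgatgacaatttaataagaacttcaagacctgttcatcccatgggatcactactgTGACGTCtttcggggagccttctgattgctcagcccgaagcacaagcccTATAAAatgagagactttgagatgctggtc
Dlx2, chr2:71546755-71546904, minus strand: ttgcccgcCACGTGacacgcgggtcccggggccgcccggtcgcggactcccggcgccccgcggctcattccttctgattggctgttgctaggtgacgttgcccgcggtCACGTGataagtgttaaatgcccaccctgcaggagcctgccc
Lhx6, chr2:36105409-36105558, minus strand: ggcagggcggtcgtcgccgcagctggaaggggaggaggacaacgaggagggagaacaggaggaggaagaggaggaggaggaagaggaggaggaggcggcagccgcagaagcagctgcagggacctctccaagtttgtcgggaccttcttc
The capitals in Sst begin 48 bases before the start and spell the full palindrome, which 1.36% of the 32851 RefSeq promoters searched over the same length held. The Vip window held the 7-letter form 79 bases before the start (2.33% of promoters) and TATAAA at 30 and 147 bases before it (7.57%). The Dlx2 window held the E box at 2 places, 142 and 42 bases before the start (4.30%), and Lhx6 held none of these letters. Of the other genes searched, Npy, Nxph1, Pvalb, Slc5a7 and Gad2 also held none, and Gad1 held TATAAA on the opposite strand. TAATTA was in none of the 4 printed windows and in 2.73% of promoters. The Dlx2 and Lhx6 windows lay under ATAC peaks, while those of Sst and Vip did not, so accessibility at these 2 starts was not measured by the peak counts. A match to these letters is a description of the sequence and not a measured binding site.

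Clustering the selected nuclei on RNA gave 8 clusters, and the lists of subtypes and cell types named some of them as interneurons. Clusters named Pvalb-like, Vip-like, Sst-like and cholinergic-like together held 144 of the 389 nuclei (37.0%, 95% interval 32.2 to 42.0). A further 128 nuclei (32.9%) were in clusters named for striatal projection neurons, although Drd1, Adora2a, Gpr6 and Rgs9 were at 0 in each of them by the rule. Of these, 83 were in cluster 1 and 45 in cluster 6, whose name is uncertain. The remaining 117 (30.1%) formed a pair of clusters that took no name. The lists of MGE and CGE lineage genes were not themselves used for names, but they share genes with lists that were. Lhx6, Sox6 and Satb1 counted for the Sst-like name, Sox6 for the Pvalb-like, and Adarb2, Prox1 and Npas1 for the Vip-like. In the named clusters the sums of these lists are therefore not independent of the names. The 57 nuclei of the unnamed cluster 3 had the highest summed MGE genes (5324 CPM). Nxph1 alone made 4321 CPM of this sum. In the Sst-like cluster the sum was 4395 CPM with Nxph1 at 2602, and in the Pvalb-like cluster 3695 with 2382, so this order rests on Nxph1. The 37.0% therefore leaves out nuclei with interneuron genes, Nxph1 foremost. Values over all 389 nuclei average these kinds. A cluster took the name of a list when at least 3 of its markers reached 20 CPM (counts per 1000000 UMIs of the summed nuclei) and 2-fold over the other selected nuclei, and where the leading genes were judged not to go against it. For cluster 6 that judgement is open, because its leading genes held 1 marker of the list it was named for and 2 of the amygdala list. The names and shares depended on the settings: the Sst-like share was 21.1% when the nuclei marked by Scrublet were left out before clustering, and with a minimum of 2000 UMIs and in a finer clustering no cluster was Vip-like and others were Lamp5-like and Sncg and Cck-like.

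**Figure D1:**
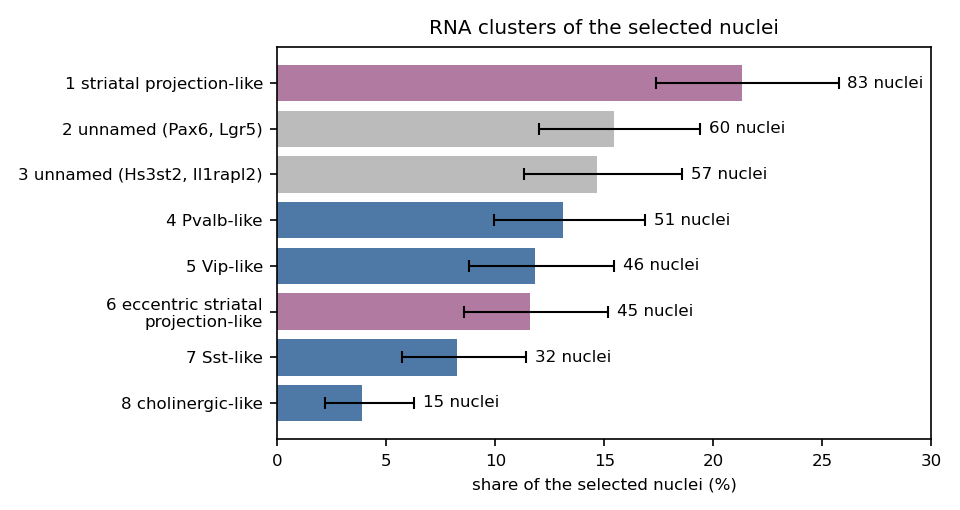
Share of the 389 selected nuclei in each RNA cluster (x axis, percent), with exact 95% binomial intervals that cover counting error only. Blue bars are interneuron-like clusters, mauve bars carry striatal projection genes and grey bars are unnamed; the shares run from 3.86% to 21.3%.

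**Figure D2:**
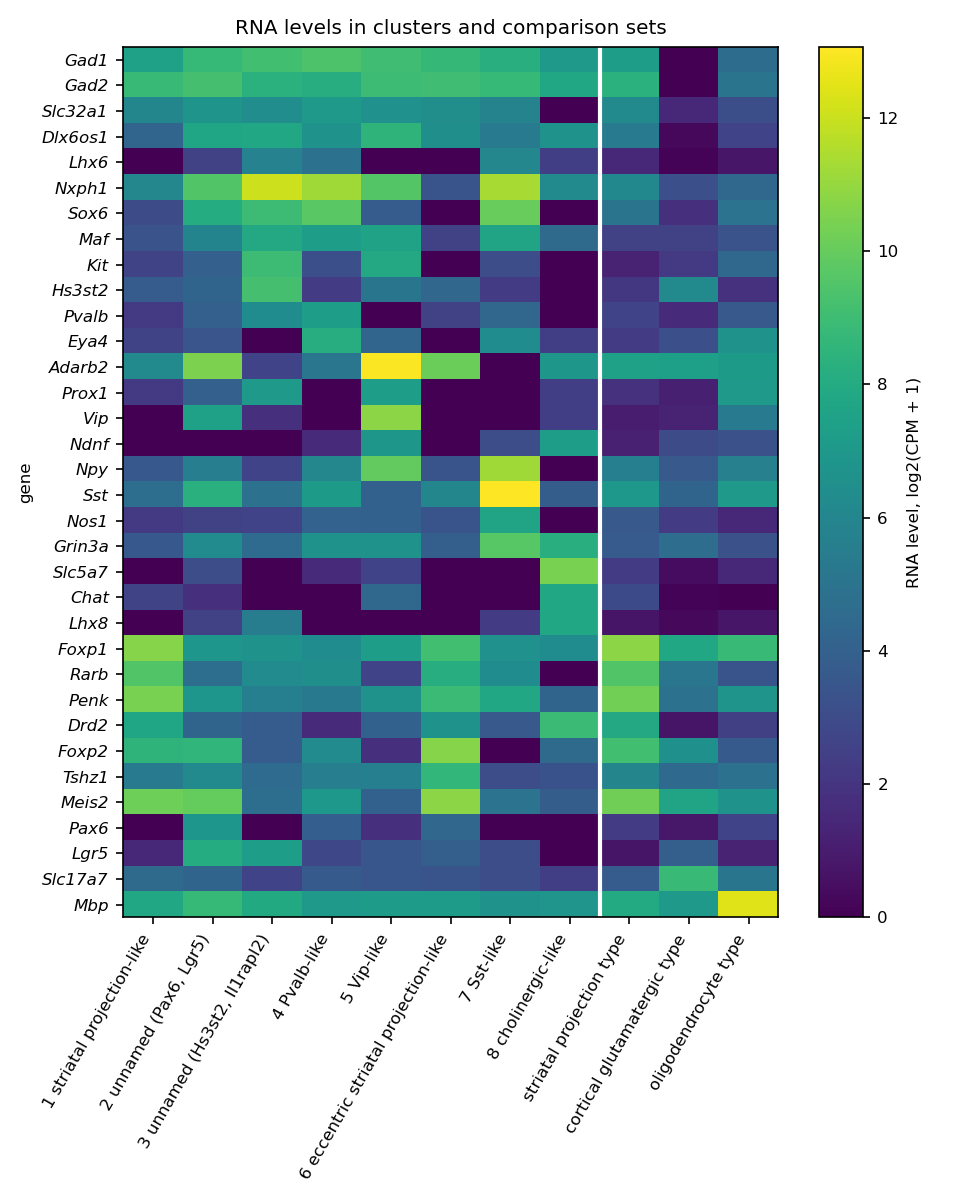
RNA level of 34 genes (rows) as log2(CPM + 1) in the 8 clusters and, right of the white line, in the striatal projection, cortical glutamatergic and oligodendrocyte types of the same library. Sst and Npy are brightest in cluster 7, Adarb2 and Vip in cluster 5, Nxph1 in clusters 3, 4 and 7, and Foxp1, Rarb and Penk in cluster 1 as in the striatal projection type.

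The Sst-like cluster (cluster 7) held 32 nuclei, 8.23% of the set (95% interval 5.69 to 11.4), and most of the Sst RNA. Sst, the inhibitory peptide that defines this class, reached 8561 CPM there (95% Poisson interval 8210.2 to 8922), against 138 CPM in the Pvalb-like cluster, 315 CPM in cluster 2 and between 13.3 and 62.3 CPM in the other 5. Cluster 7 accounted for 90.3% of the 2485 Sst UMIs of the selected nuclei, with a median of 44.5 UMIs and a highest of 240 UMIs per nucleus. Sst RNA was thus concentrated in few nuclei. A Sst UMI was found in 86 nuclei, but 47 of these had only 1 or 2, and 34 had at least 10, of which 30 were in cluster 7. Clusters were built on these genes, so a gene that leads its own cluster is a description and not a finding.

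The same 32 nuclei carried part of the list of the Sst Chodl type, of which 4 of 6 genes counted as markers (Sst, Nos1, Npy and Cort). Npy, the orexigenic peptide, was at 2316 CPM, Nos1, the neuronal nitric oxide synthase, at 198 CPM, and Cort, the peptide cortistatin, at 103 CPM. Chodl, which names the rare Sst and Nos1 type of cortex, was at 19.1 CPM from 5 UMIs in 2 nuclei. Nos1 was found in only 9 of the 32 nuclei and Npy in 25. Tacr1, also on that list, did not count here and was at 603 CPM in the cholinergic-like cluster. The nuclei are therefore not assigned to the Chodl type. The MGE factors Lhx6 (64.9 CPM), Sox6 (1057 CPM) and Satb1 (389 CPM), which counted for the name of the cluster, accompanied them. Grin3a, a glutamate receptor subunit typical of Sst cells, stood at 816 CPM, against 12.4 CPM in the striatal projection type. Adarb2 and Vip, of the caudal lineage, had 0 UMIs in cluster 7.

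The Pvalb-like cluster (cluster 4, 51 nuclei, 13.1%) also carried MGE factors, and Pvalb in place of high Sst. Pvalb, a fast calcium buffer, was at 156 CPM (123 to 195) and found in 27 nuclei. Syt2, the synaptotagmin of fast synapses, was at 129 CPM, and the transcriptional regulator Eya4 at 281 CPM. Kcnc2, a potassium channel subunit that lets cells fire fast, was similarly high there (2453 CPM) and in the Sst-like cluster (2060.1 CPM), but was at 23.7 CPM in cluster 1. Sox6, which counted for the Pvalb-like name, was at 847 CPM, Nxph1, a secreted ligand of neurexins, at 2382 CPM and Lhx6 at 28.3 CPM. Of the 51 nuclei, 9 held UMIs of the astrocyte transporter Slc1a3, which was among the leading genes of the cluster at 226 CPM. At a finer clustering 9 nuclei, 7 of them from cluster 4, came apart with all 6 astrocyte markers counted, and their part in the values of cluster 4 was not tested. The 44 others kept Pvalb at 179.8 CPM.

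Cluster 3 (57 nuclei, 14.7%) had the highest Nxph1 of the 8 clusters and remained unnamed. Nxph1 stood at 4321 CPM (4118 to 4532). Lhx6 was at 53.6 CPM, Nkx2-1, the factor of the MGE that most cortical interneurons shut off, at 56.2 CPM, and Lhx8 at 45.9 CPM. The cluster was led by Hs3st2 (597 CPM), a heparan sulfate sulfotransferase, by the transcript Sfta3-ps (919 CPM), by Il1rapl2 (5839.6 CPM), by St18 (431 CPM) and by Pcsk6 (271 CPM). Kit, a receptor tyrosine kinase, and Pthlh, a peptide hormone of some striatal interneurons, followed, and 35 of the 38 selected nuclei with Pthlh also had Kit. Of the caudal genes, Prox1 (130.2 CPM) and Egfr (510.5 CPM) were present while Adarb2 (5.10 CPM) was nearly absent. Pvalb was at 81.7 CPM, found in 9 nuclei, and Sst at 28.1 CPM. Only 3 of the 8 Pvalb-class markers counted, and none of them was among the leading genes.

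The Vip-like cluster (cluster 5, 46 nuclei, 11.8%) had the highest summed CGE genes (8800 CPM), beside 1501 CPM in cluster 2 and 1136 CPM in cluster 6. Most of the 8800 CPM was Adarb2 alone, which counted for the Vip-like name and was found in nuclei of 7 of the 8 clusters. Adarb2 reached 8147 CPM (7866 to 8435), found in 45 of the 46, while Lhx6 had 0 UMIs. Prox1 was at 151 CPM, Nr2f2 at 71.7 CPM and the serotonin receptor Htr3a at 79.3 CPM. Vip, the vasoactive peptide, was at 1743 CPM but was found in only 19 nuclei, with up to 90 UMIs in 1 nucleus. The finer clustering, looked at after the data were seen, separated 24 nuclei from 22. The 24 had Vip at 3311 CPM and Cck at 961 CPM, and the 22 had Npy at 1886 CPM, Reln at 708 CPM, Ndnf at 245 CPM and Lamp5 at 144 CPM, the genes of neurogliaform cells. Vip was at 47.9 CPM in the second group, and Npy at 143 CPM in the first. Of the 47 nuclei with a Lhx6 UMI, 45 had Nxph1 and 4 had Adarb2, beside 52.2% and 39.1% of all selected nuclei. Nxph1 and Adarb2 were found together in 51 nuclei, 25.1% of those with Nxph1 and 33.6% of those with Adarb2. Of the 23 with Vip, 21 had Adarb2. These counts take 1 UMI as found, and Adarb2 was found in this way in 33.8% of the striatal projection type and 46.4% of the cortical glutamatergic type.

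The smallest cluster was cholinergic-like (cluster 8, 15 nuclei, 3.86%, 95% interval 2.17 to 6.28). All 6 cholinergic markers counted, with Slc5a7, the choline transporter, at 1375 CPM, Chat, the enzyme that makes acetylcholine, at 217 CPM, and Lhx8, a factor these cells need, at 226 CPM. Slc5a7 was found in 15 of the 15 nuclei. Drd2, a dopamine receptor of striatal cholinergic cells, was at 470.2 CPM and the vesicular glutamate transporter Slc17a8 at 359 CPM. These nuclei passed the rule with 3 to 9 UMIs of Gad1 and Gad2, but the GABA transporter Slc32a1 had 0 UMIs among all of their UMIs, as did Dlx1. Their median depth was 14945 UMIs, the deepest of the 8.

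Cluster 2 (60 nuclei, 15.4%) was mixed and unnamed. It was led by Pax6 (117 CPM), a homeodomain factor, Kcnh8 (112 CPM), Pappa (92.4 CPM), Lgr5 (275 CPM), a receptor for R-spondins, and Nts (89.9 CPM), the peptide neurotensin. Pax6 was found in 21 nuclei and Nts in 10, so none of these genes marked the whole cluster. Meis2 was at 1024 CPM, Foxp2 at 389.7 CPM and Adarb2 at 1424 CPM. Scrublet marked 15 of the 60 nuclei (25%), the highest share of the 8 clusters, and the oligodendrocyte gene Mbp was at 429.7 CPM against 103 to 239.9 CPM in the others. The finer clustering split 37 nuclei with Pax6 at 162 CPM and Lgr5 at 393 CPM from 23 with oligodendrocyte and microglial genes such as Apod and C1qb among their leading genes. The part of these genes in the values of cluster 2 was not tested.

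Clusters 1 and 6 had striatal projection genes. Cluster 1 (83 nuclei, 21.3%) counted 11 of 12 such markers, among them the transcription factor Foxp1 (1633 CPM), the retinoid receptor Rarb (724 CPM), the opioid peptide Penk (1374 CPM) and Drd2 (206 CPM). In the striatal projection type, chosen for Rgs9, the same genes stood at 1745, 742, 1257 and 232 CPM. Ppp1r1b, the DARPP-32 phosphatase inhibitor, was at 232 CPM in cluster 1 and 341 CPM in that type. Its nuclei sat closest to the Gad1 and Gad2 limit, with a median of 3 UMIs. Cluster 6 (45 nuclei, 11.6%) took the name of the eccentric projection neurons from 3 of 6 markers, Tshz1 at 407 CPM, Otof at 62.3 CPM and Cacng5 at 57.5 CPM. Of these only Tshz1 was among its 10 leading genes, which also held Foxp2 (1629.9 CPM) and Tac1, the substance P gene (714 CPM). Foxp2 and Tshz1 are also on the list of amygdala genes, whose 7 members summed to 2114 CPM in cluster 6 and to between 42.0 and 659.5 CPM in the other clusters, so the name of cluster 6 is uncertain. It was led by Chst9 (192 CPM), and Lhx6 and Sox6 had 0 UMIs.

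Over all 389 nuclei, the label genes differed in how far they stood above the striatal projection type, as a mean of clusters with and without them. Gad2 was at 417 CPM against 326 CPM and Gad1 at 419 against 160.3 CPM, and the rule used both. Nxph1 (1438 CPM, 95% interval 1395 to 1482) was at 68.7 CPM in the striatal projection type, 8.16 CPM in the cortical glutamatergic type and 20.1 CPM in the oligodendrocyte type. Lhx6 was at 18.8, 1.87, 0.112 and 0.745 CPM in the same order. Sst was at 850.4 CPM in the selected nuclei, 125 in the striatal projection type, 17.4 in the cortical glutamatergic type and 132 in the oligodendrocyte type. At least 10 Sst UMIs were found in 18 nuclei of the striatal projection type and 3 of the oligodendrocyte type, with up to 264 and 110 UMIs in 1 nucleus. In the oligodendrocyte type Gad1 was at 23.9 CPM. In mm10, Sst (ENSMUSG00000004366) spans chr16:23889573-23890958 on the minus strand, Lhx6 (ENSMUSG00000026890) chr2:36081953-36105408 on the minus strand and Nxph1 (ENSMUSG00000046178) chr6:8948431-9249032 on the plus strand.

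At equal depth the share of nuclei with a Sst UMI was above that of the other neuron sets but overlapped with that of the oligodendrocyte type. With each nucleus thinned to 1000 UMIs, 10.8% of the selected nuclei had a Sst UMI (95% interval 7.89 to 14.3) and 7.20% of the oligodendrocyte type (5.99 to 8.56), a type that should lack Sst, and these intervals overlap. In the striatal projection type the share was 3.91% (3.00 to 4.99) and in the cortical glutamatergic type 3.08% (1.99 to 4.56), both below the interval of the selected nuclei. Before thinning, the shares were 22.1% in the selected nuclei and 11.1% in the oligodendrocyte type, at median depths of 6688 and 1384 UMIs. Thinning thus removed a far larger part of a selected nucleus than of an oligodendrocyte type nucleus. The intervals do not cover the error of the random draw. Other genes were further apart. Nxph1 was found in 40.4% of the thinned selected nuclei and 0.738% of the oligodendrocyte type, Adarb2 in 27.8% and 3.51%, Vip in 4.37% and 0.615%, and Lhx6 in 1.54% and 0.123%. Npy was found in 11.1% and 3.63%. Without the nuclei marked by Scrublet, and with the rest thinned anew, Npy was found in 7.89% of the selected nuclei. Thinned, it went from 43 to 27 nuclei, but unthinned only from 69 to 60 (17.7% to 17.5%). The change in the thinned share therefore includes the new random draw. For Pvalb the shares were 2.06% and 1.17%, with intervals that overlap. Unthinned, the selected nuclei showed Nxph1 in 52.2%, Adarb2 in 39.1%, Npy in 17.7%, Lhx6 in 12.1%, Pvalb in 12.1% and Vip in 5.91%. A single UMI of Sst or Pvalb in a nucleus is therefore not read here as expression.

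**Figure D3:**
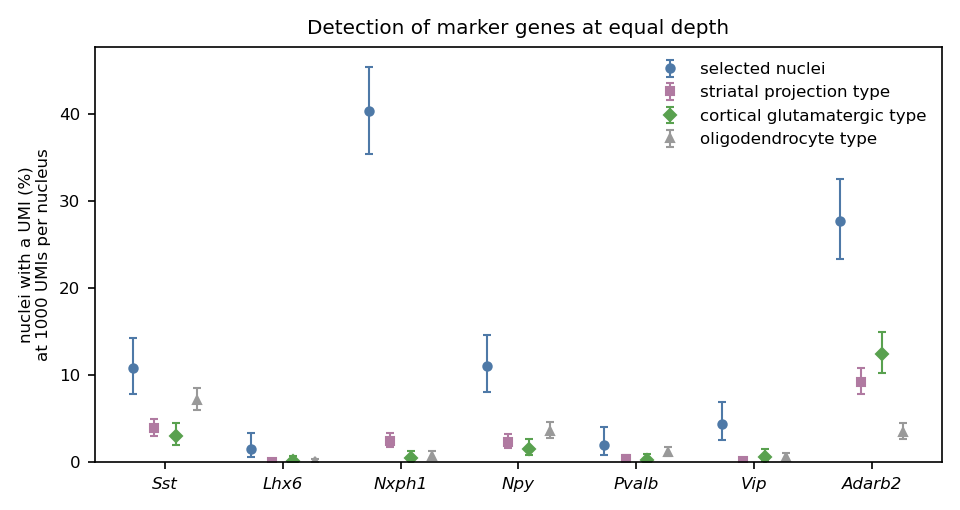
Share of nuclei (y axis, percent) with at least 1 UMI of 7 genes after thinning every nucleus to 1000 UMIs, in the selected nuclei and 3 other sets of the library, with exact 95% binomial intervals. Nxph1 (40.4%) and Adarb2 (27.8%) stand well above the oligodendrocyte type, while the intervals of Sst and Pvalb overlap with it.

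Against the striatal projection type, 1045 of 10422 genes with at least 10 CPM in 1 of the sets (10.0%) were higher by at least 2-fold (log2 of CPM + 1) in the selected nuclei and 547 (5.25%) were lower. Counted as UMIs per nucleus in place of CPM, 798 were higher and 796 lower, since every log2 ratio then shifts by -0.19. A gene can pass this minimum only through the set where it is high, as 568 of the 1045 and 188 of the 547 did, so lists are counted here over the members with at least 10 CPM in both sets. On that base 477 of 8943 genes (5.33%) were higher and 359 (4.01%) lower. Of the 8 MGE genes 3 qualified, Nxph1, Sox6 (344 against 31.6 CPM) and Satb1 (95.1 against 15.7 CPM), and all 3 were higher. Of the 7 CGE genes only Adarb2 qualified (1394 against 178 CPM), and Prox1 was at 40.7 against 2.62 CPM. On the scale of CPM without the added 1, which is used for single genes, Maf had a log2 ratio of 4.57, Egfr of 4.56 and Npas1, a factor of caudal interneurons, of 5.12. Of the 8 Dlx and pan-GABAergic factors, 2 of the 4 that qualified were higher. Dlx1, which did not qualify, was at a log2 of 3.09 (2.43 to 3.78) and Npas3 at 3.20. Sp9 had a log2 of 0.51 and Dlx6 one of -0.75. Dlx6 overlaps its antisense partner Dlx6os1 (log2 1.83), and whether counting used strand is not given in the sources used here, so their reads cannot be told apart. The rule shares this contrast through Rgs9 and the dopamine and adenosine receptors, so these counts describe the selection.

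Synapse and channel genes of interneurons were mostly higher. Among all genes with at least 10 CPM in both sets, 5.33% were higher and 4.01% lower. Of 14 synapse and signaling genes 11 had that level, and 8 of these were higher and 0 lower. They hold Erbb4, the neuregulin receptor (3763 against 410.2 CPM), Grip1, a scaffold of AMPA receptors (2743 against 313 CPM), and Grik1, a kainate receptor subunit (466 against 28.3 CPM). Of the 7 of 8 channel genes on the same base, 4 were higher. Kcnip1 was at a log2 of 3.99 and Kcnc2 at 3.66. Kcnmb2, at a log2 of 4.59, did not qualify, with 9.60 CPM in the striatal projection type. Of 10 GABA-A receptor subunits 2 were higher, among them Gabra3 (log2 1.71), and 0 lower. Their median log2 was 0.06, beside 0.04 over all genes tested. Of 15 peptide and calcium-binding genes 9 had at least 10 CPM in both sets, and 5 of these were higher and 3 lower, the latter Penk, Tac1 and Calb1. Of the 12 striatal projection genes, 0 were higher and 11 lower (median log2 -1.65), with Isl1 within the fold at -0.18.

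Against the cortical glutamatergic type, 730 of 10373 genes (7.04%) were higher and 482 (4.65%) lower, and per nucleus 316 and 1509, with every log2 ratio shifted by -0.61. With at least 10 CPM in both sets these were 323 (3.60%) and 276 (3.07%) of 8982. Only 1 gene each of the MGE, CGE and Dlx lists reached that level in the glutamatergic type, Satb1 at 46.0 CPM, Adarb2 at 164 CPM and Npas3 at 77.9 CPM, against 95.1, 1394 and 586 CPM in the selected nuclei. Slc32a1 was at 83.5 CPM against 1.79 CPM. Sv2b, a vesicle protein of glutamatergic neurons, had a log2 of -3.61. The sets were chosen by opposite limits on Gad1, Gad2 and Slc17a7, so differences in GABAergic and glutamatergic genes describe the selection. Of 12 striatal projection genes 10 had at least 10 CPM in both sets, and 7 of these were higher and 0 lower, in a set where clusters 1 and 6 held 128 nuclei. Without the striatal projection-like and unnamed clusters, Meis2 went from a log2 of 1.37 to -1.76 and Foxp2 from 1.43 to -1.53.

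The 20 genes furthest above both neuron sets, ranked by the smaller of their 2 log2 ratios, were mostly concentrated in 1 or a few clusters. Vip ranked first, and 90.4% of its UMIs were in cluster 5. Sfta3-ps (152 CPM in all selected nuclei, 919 in cluster 3), Kit (103 and 498), Egfr (118 and 510.5), Lama3 (70.2 and 304), Moxd1 (75.3 and 294) and Adamts5 (22.6 and 117) were highest in cluster 3. Slc5a7 (108 and 1375), Qrfprl (42.1 and 510.2), Lhx8 (24.6 and 226) and Pde3a (83.2 and 488) were highest in the 15 nuclei of cluster 8. Kcnmb2, an accessory subunit of calcium-activated potassium channels, was spread over clusters 4, 5 and 7 (566, 392 and 507 CPM), and Kcnip1, a partner of transient potassium channels, over clusters 3, 4, 5 and 7. The others of the 20 were Nxph1, Maf, 6330411D24Rik, Slc17a8, Btbd11, Pnoc, the nociceptin gene, and A530058N18Rik. Among the 10 lowest, Rasgrp1, an exchange factor for Ras, was at 75.3 CPM against 243 and 261 CPM, and Plxnd1, a semaphorin receptor, at 5.13 against 24.7 and 22.0 CPM. The rest were Igfbp6, Mei1, Gm42303, Pcsk2os2, Dusp14, A830036E02Rik, Ankrd33b and Gm43445, between 2.05 and 32.9 CPM.

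Markers of other cell types were low but not at 0. The 6 oligodendrocyte markers summed to 370.3 CPM in the selected nuclei, 418 in the striatal projection type and 13392 in the oligodendrocyte type, which was chosen by such markers, with 0 of 6 past the fold against either neuron set. Over the clusters the sum ran from 212 CPM in cluster 4 to 754 CPM in cluster 2. The astrocyte markers summed to 219 CPM and reached 588 CPM in cluster 4. The microglial markers summed to 155 CPM, against 134 and 132 CPM in the other neuron sets. The 8 proliferation genes had 10 UMIs in all, with Top2a at 0 UMIs, which allows up to 1.03 CPM, and Mki67 at 5 UMIs.

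ATAC counts of the same nuclei, which the rule did not use, were summed over peaks within each gene and 2 kb around it. Of 14400 loci with at least 60 fragments in the selected nuclei, 637 (4.42%) were more open by at least 2-fold than in the striatal projection type and 131 (0.910%) less. The minimum applied to the selected nuclei only, so loci that were low in them could drop out, and the counts of higher and lower loci cannot be set against each other. Against the cortical glutamatergic type these were 222 (1.54%) and 119 (0.826%). By the share of nuclei with any count at the locus, in place of summed counts, they fell to 352 and 57 over the striatal projection type and to 81 and 68 over the cortical glutamatergic type. Lhx6 was the clearest of the label genes, with a log2 ratio of 2.39 (1.82 to 2.97) over the striatal projection type and of 2.91 over the cortical glutamatergic type, from 59.5 fragments, just under the minimum of 60 and so outside these counts. Dlx1 (1.88 and 2.63), Dlx2 (2.10 and 2.55), Maf (1.75 and 1.15) and Prox1 (1.95 and 1.78) were past the fold over both. Nxph1 was past it over the striatal projection type only (1.64 and 0.64), and so was Kcnc2 (1.97 and 0.25).

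Other GABAergic loci separated the selected nuclei from the glutamatergic type alone. Gad1 had log2 ratios of -0.23 and 1.65 and Slc32a1 of -0.15 and 3.07. Dlx6 was level with the striatal projection type and had 3.57 over the glutamatergic type. The striatal loci Foxp1 (-1.32), Drd2 (-1.23) and Rarb (-1.01) were lower than in the striatal projection type, and Neurod2 (-2.93, from 10 fragments, under the minimum) was lower than in the glutamatergic type. Adarb2, with RNA log2 ratios of 2.97 and 3.08, had ATAC log2 ratios of -0.04 and -0.44 summed over its gene. Peaks were called on the whole library, and Sst, Vip, Slc5a7, Lhx8 and Nkx2-1 had 0 peaks within 2 kb, so nothing can be said of their accessibility.

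Between clusters, several loci of the named subtypes were more open where their RNA was high. Against the other selected nuclei, Pvalb in cluster 4 had a log2 ratio of 2.16 (1.40 to 2.91, 28 fragments), Adarb2 in cluster 5 of 2.16 (1.69 to 2.63) and Chat in cluster 8 of 3.31 (2.26 to 4.29, 14 fragments). In cluster 7, Grin3a (1.75) and Nos1 (1.14) stood above the rest, and Lhx6 at 1.07 had an interval that included 0 (-0.08 to 2.07). Nxph1 was not more open in cluster 7 (-0.39, -1.88 to 0.79) although its RNA was high there, and in cluster 1 it was less open (-3.42, -6.49 to -1.53).

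The unnamed cluster 3 had open loci of its own. Hs3st2 (2.16), Egfr (2.02), Kit (1.79), Lhx6 (1.55, 0.70 to 2.36) and Prox1 (1.17) were all more open there, so its summed nuclei held both the medial factor Lhx6 and the caudal factor Prox1 in RNA and in ATAC. Foxp1 in cluster 1 (1.67, 1.45 to 1.90), Foxp2 in cluster 6 (2.12) and Pax6 in cluster 2 (1.57, 0.63 to 2.46) followed their RNA too. Of the 10 leading RNA genes of each cluster, those with at least 60 fragments were past the 2-fold in 9 of 10 for cluster 1 (2.86% of all loci), 0 of 5 for cluster 2 (0.681%), 5 of 7 for cluster 3 (1.44%) and 4 of 7 for cluster 4 (0.958%). For clusters 5 to 8 they were past it in 2 of 4 (1.10%), 3 of 9 (1.58%), 2 of 6 (1.24%) and 3 of 4 (3.46%). By the share of nuclei with any count the numbers were 4 for cluster 1, 3 for cluster 3 and 1 for cluster 5, and without Scrublet nuclei 2 for cluster 4. Pax6 (48.5 fragments) and Chat (41) were under the minimum of 60 and are outside these counts.

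**Figure D4:**
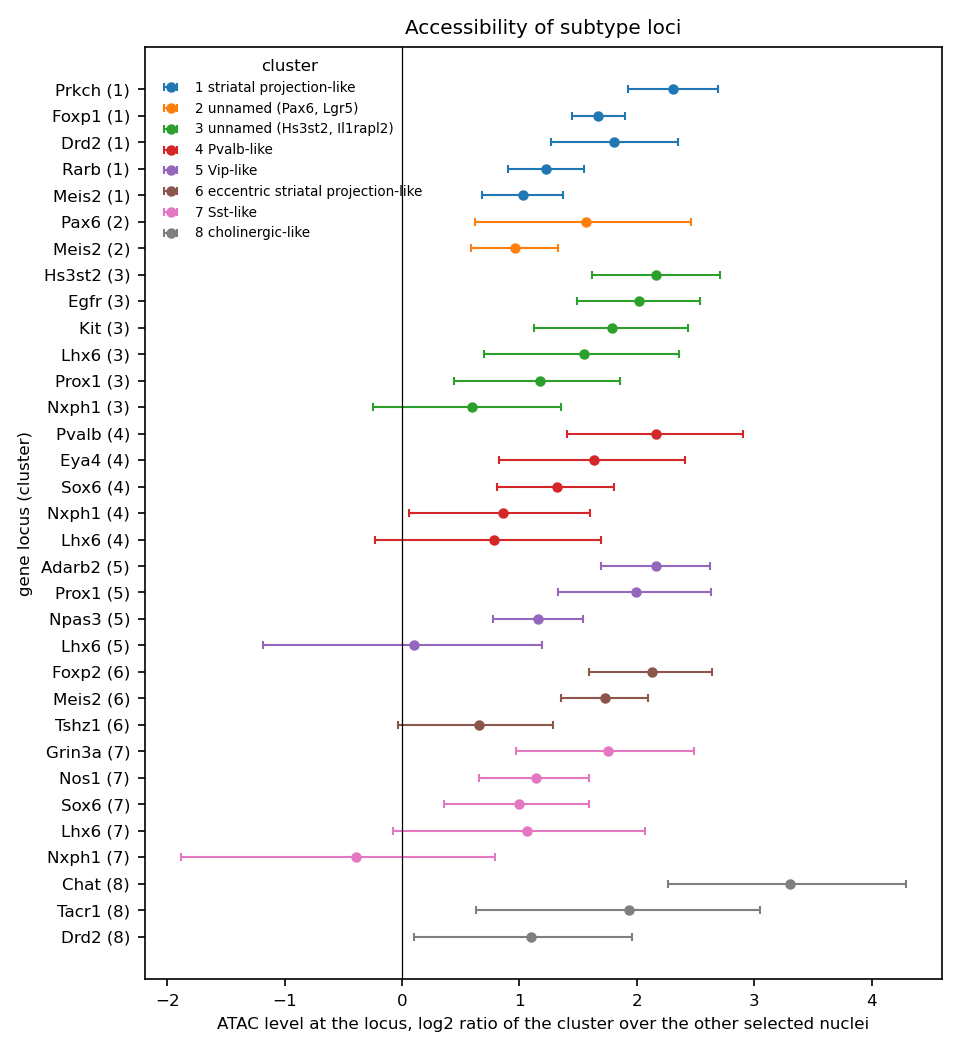
Log2 ratio of ATAC counts at a gene locus in 1 RNA cluster over the other selected nuclei (x axis), with exact 95% intervals from fragments, for 33 gene and cluster pairs; the number in brackets and the colour give the cluster. Chat in cluster 8 lies at 3.31 and Pvalb in cluster 4 at 2.16, while Nxph1 in cluster 7 and Lhx6 in clusters 4, 5 and 7 have intervals that include 0.

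Clusters made from the ATAC peak counts alone, added after the data were seen, matched the RNA clusters in part. There were 5, and the adjusted Rand index, which is 1 for equal partitions and near 0 for unrelated ones, was 0.509. ATAC cluster 2 took 78 of the 83 nuclei of cluster 1, ATAC cluster 4 took 44 of the 46 Vip-like nuclei, and ATAC cluster 5 took 48 of the 57 nuclei of cluster 3. ATAC cluster 1 joined most of the Pvalb-like (43 of 51), Sst-like (29 of 32) and cholinergic-like nuclei (14 of 15). Clusters 2 and 6 shared ATAC cluster 3, with 38 of 60 and 29 of 45 nuclei. This clustering therefore kept the Sst-like and Pvalb-like nuclei together, although single loci such as Pvalb and Grin3a differed between clusters as given above.

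**Figure D5:**
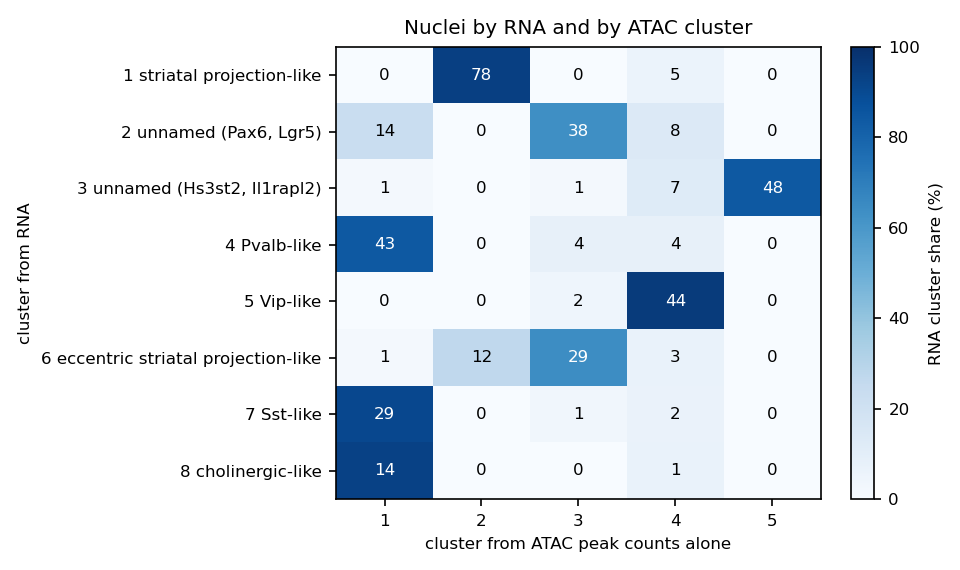
Number of nuclei in each pair of RNA cluster (rows) and cluster from ATAC peak counts alone (columns), coloured by the share of the RNA cluster in percent. Clusters 4, 7 and 8 fall mainly into ATAC cluster 1, and 48 of the 57 nuclei of cluster 3 make up ATAC cluster 5.

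Of 10120 peaks with at least 60 fragments in the selected nuclei, 12 (0.119%) were at least 4-fold higher than in both other neuron sets, with the next at a smaller log2 ratio of 1.88. Among them, 3 lay at gene starts. The peak at the Dlx2 start (mm10 chr2:71546254-71546973), which covers the sequence printed above, had 26.1 ATAC counts per 1000000 in the selected nuclei, 5.79 in the striatal projection type and 2.45 in the cortical glutamatergic type. The peak at the start of Pipox had 24.6, 5.19 and 5.63, but was at 57.0 in the oligodendrocyte type. The Dlx2 peak had 47.1 ATAC counts per 1000000 in cluster 2, 49.8 in cluster 7 and 0 fragments in cluster 1. The others were in introns of Disc1, Ubash3b, Ntrk2 and Iqsec1 or between genes. The highest, 9183 bases from the start of Hdac11, had 22.4 ATAC counts per 1000000 against 1.93 and 0.897, and ran from 0 in cluster 1 to 49.2 in cluster 3. Besides the Pipox peak, those nearest to Rxra and Psmg4 were higher in the oligodendrocyte type (75.5 and 38.8) than in the selected nuclei (24.6 and 29.8). Of the 12, 8 were covered by a peak of Foxr2 alone replicate 2 (66.7%, 95% interval 34.9 to 90.1) and 11 by one of Foxr2 p53LOF (91.7%), beside 99.1% and 99.2% of the 10120 peaks that passed the minimum and 53.8% and 53.1% of all 135201 peaks. Foxr2 alone replicate 2 held 1650 barcodes and 99112 peaks, against 10379 barcodes and 112924 peaks of Foxr2 p53LOF replicate 1. Whether this difference in size bears on the overlap was not tested. The 12 peaks had between 60 and 88.5 fragments in the selected nuclei, close to the minimum of 60.

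The same rule in Foxr2 p53LOF replicate 1 found 479 nuclei, 17.3% of its 2766 neuronal nuclei (95% interval 15.9 to 18.8), with a median of 10932 UMIs. Genotype, library and dissected region cannot be told apart in this comparison, nor can fewer cells of a type and less RNA per cell. In CPM, 1706 of 10661 genes (16.0%) were at least 2-fold higher in Foxr2 alone and 893 (8.38%) lower, but 654 and 3604 per nucleus, with a shift of -0.74. With at least 10 CPM in both libraries, 787 of 8545 genes (9.21%) were higher and 419 (4.90%) lower. Of 15 peptide and calcium-binding genes only 4 reached that level in both, and 2 of these were higher in Foxr2 alone. Sst was at 850.4 against 15.9 CPM, Npy at 359.7 against 7.64 CPM and Vip at 258 against 0.996 CPM. Of the 5 of 8 MGE genes on the same base, 3 were higher. Lhx6 was at 18.8 against 0.996 CPM, while Nxph1 was at 1438 against 792 CPM, within the fold. Adarb2 was also within it, at 1394 against 1751 CPM, and of the 5 of 7 CGE genes on that base 1 was higher and 1 lower.

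The nuclei that the rule took from Foxr2 p53LOF carried genes that were at 0 in Foxr2 alone. Gata3, a factor of GABAergic neurons of the midbrain and hindbrain, was at 51.6 CPM there, Tal1 at 21.7 CPM, Lhx1 at 24.1 CPM and Otx2 at 10.6 CPM. All 4 had 0 UMIs in the selected nuclei of Foxr2 alone, which allows up to 1.03 CPM each. Of the 8 genes on the list of non-telencephalic GABAergic genes that holds them, 7 were at 0 in Foxr2 alone. The other, Six3, was at 14.4 CPM in 34 selected nuclei of Foxr2 alone and at 21.1 CPM in Foxr2 p53LOF, within the fold. Ppp1r1b was at 73.2 CPM in Foxr2 alone and 0.166 CPM in Foxr2 p53LOF, so the mixtures that the rule took from the libraries were unlike in these genes.

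Transcripts of the delivered constructs were rare in the selected nuclei. GFP had 37 UMIs in 21 nuclei (12.7 CPM, 95% interval 8.92 to 17.5), against 29.7 CPM in the striatal projection type, 25.3 CPM in the cortical glutamatergic type and 35.4 CPM in the oligodendrocyte type. Of the 37 UMIs, 15 were in cluster 1, 6 each in clusters 4 and 6, 2 in the Sst-like cluster and 0 in cluster 3. Akaluc had 8 UMIs, and the piggyBac transposase 0 UMIs, beside 25, 146 and 6 UMIs in the other sets. Foxr2 itself had 4 UMIs, 2 in cluster 1 and 2 in the Sst-like cluster. The same rule in Foxr2 p53LOF gave GFP at 116.5 CPM and Foxr2 at 12.1 CPM. These counts are too few to say which selected nuclei carried the constructs.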

How the data were processed

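The deposited matrices hold counts made by the authors with Cell Ranger ARC 2.0.0 on mm10 plus vector sequences: UMIs per gene, introns included, and transposition events per peak, with cells and peaks called in each library and no further normalization. In Foxr2 alone replicate 1, 59719847 UMIs and 118436178 ATAC counts fell on 10096 barcodes. Since 82.9% of nonzero peak entries were even, fragments were taken as counts divided by 2. Of Foxr2 alone replicate 2, only barcodes and peaks entered the work, and counts are not analysed here. 0 columns belonged to other samples. Gene intervals came from GENCODE vM21 and promoter sequences from RefSeq, where 10 of 11 genes matched. Results on a few genes are not reported here.

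Groups followed the labels. UMIs were summed over nuclei and given as CPM, with exact Poisson intervals and exact binomial (Clopper-Pearson) intervals at 95%, which cover counting error only. A floor of 3 counts over the summed nuclei set the limit for a count of 0. With 1 library per group no test was made. A gene was past the fold at an absolute log2 of at least 1 (CPM + 1) with 10 CPM in 1 set, and lists were counted over members with 10 CPM in both. ATAC loci extended the gene by 2 kb and needed 60 fragments in the selected nuclei.

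Selected nuclei were clustered with scanpy 1.11.5 (UMIs scaled to 10000, 2000 variable genes, 30 principal components, 20 neighbours, Leiden with leidenalg 0.10.2 at resolution 0.5, seed 100). The naming thresholds, the finer clustering at resolution 1, the ATAC clustering and the motifs were set after the data were seen. The members, the gene lists and the other choices were made with earlier results of these data known. Doublets were marked with Scrublet at an expected rate of 8% and kept; scDblFinder, which the study ran, was not run here. Genes were named from the fixed lists, and beyond them as the 20 highest and 10 lowest against both neuron sets, the 5 leading genes of each cluster and the 10 highest peaks; other genes named were chosen after their values were seen. The fold calls, the ratio intervals and the RNA clustering recovered known answers of simulated data within set limits. Those data held Poisson counting error only, and doublets, cluster names and the ATAC steps were not simulated. Alternatives covered the limits on nuclei, doublets, clustering, thinning, scaling, low-value filters, locus windows and peak overlap.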

Additional observations from a re-analysis of the deposited data

How the results depend on the processing

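Of 3416 recomputed values of single genes, 2894 moved by less than 1.5-fold, 508 moved by more, and 14 that were past the fold changed sign. The 14 reversed when the striatal projection-like and unnamed clusters were left out. Against the cortical glutamatergic type the log2 ratios became -0.40 for Adcy5, -0.40 for Etv1, -1.53 for Foxp2, -2.06 for Gm10754, -1.34 for Gm13269, -1.04 for Lgr5, -1.76 for Meis2, -0.17 for Pappa, -0.70 for Ppp1r1b and -0.71 for Prkch. Against the striatal projection type they became -0.71 for Etv1, -0.38 for Nts, -0.32 for Pcsk6 and -0.13 for St18. This alternative leaves 144 of the 389 nuclei.

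With at least 5 UMIs of Gad1 and Gad2 the rule found 225 nuclei. Cluster shares depended on the limits: with 2000 UMIs the Vip-like and eccentric clusters were at 0%, a Lamp5-like cluster held 5.32%, a Sncg and Cck-like cluster 6.65%, and 40.7% of nuclei were unnamed, with the limits of the study the eccentric share was 26.0% and 15.6% were unnamed, without Scrublet nuclei the Sst-like share was 21.1% and 15.2% were unnamed, and at resolution 1 the Vip-like share was 0%, its nuclei being named Lamp5-like and Sncg and Cck-like, and 23.9% were unnamed. The cause was not tested. Without thinning, shares were 39.1% for Adarb2, 12.1% for Lhx6, 17.7% for Npy, 52.2% for Nxph1, 12.1% for Pvalb and 22.1% for Sst. Without Scrublet nuclei, Npy was at 7.89% after a new thinning draw and at 17.5% unthinned.

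Counts of genes moved with scaling and filters. Against the cortical glutamatergic type, 316 were higher and 1509 lower per nucleus, 271 and 224 with 50 CPM, and 1453 and 1034 with no filter. Against the striatal projection type, 415 and 276 passed with 50 CPM, 1953 and 983 with no filter, and 1112 were lower without the striatal projection-like and unnamed clusters. Against Foxr2 p53LOF, 654 were higher and 3604 lower per nucleus. Counting nuclei with any fragment at a locus gave 352 higher and 57 lower against the striatal projection type and 81 and 68 against the glutamatergic type, and 4, 3 and 1 leading genes past the fold for clusters 1, 3 and 5. For cluster 4 it was 2 without Scrublet nuclei. No paired analysis was possible because the results come from no test and each group has 1 library of counts.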
